A study of Cavia porcellus with 18 samples.

Results

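The sites described are called deep gene-body sites here. These CG positions lie downstream of the nearest transcription start site listed with them, by over 10 kb and up to 100 kb. They were chosen by that distance alone, without use of their methylation levels. They number 54980 of the 167387 CG sites measured by both bisulfite assays (32.8%). They lie in 17548 peaks of the authors' H3K4me1 peak list on 241 scaffolds, with 7420 genes as the nearest listed. ChIP-bisulfite (methylation of DNA precipitated with an antibody against the histone mark H3K4me1) is set against reduced representation bisulfite sequencing, RRBS (methylation of the same positions in total DNA, cut with restriction enzymes). Both were made from the hippocampus of 3 male guinea pigs (Cavia porcellus), wild type and 12 weeks old, with 3 ChIP-bisulfite libraries and 6 RRBS libraries, 3 of them read at 50 and 3 at 100 bases. H3K4me1 ChIP-seq and ChIP-seq of RNA polymerase II phosphorylated on serine 5 (Pol II PS5) had 3 libraries each from the same animals, and no group carried a mutation or a treatment. The deposited values hold 1 level per site and assay for all animals together, so no spread between animals exists. Errors below are standard errors across scaffolds (scaffold SE), which describe variation along the genome, and the comparisons are descriptions without a test.

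In mammals the DNA of promoters rich in CG is mostly unmethylated, while the body of a transcribed gene is mostly methylated. H3K4me1 marks enhancers, many of which lie in introns, and active enhancers are usually less methylated than the DNA around them. Phosphorylation of serine 5 in the C-terminal repeats of RNA polymerase II goes with initiation, at promoters and at transcribed enhancers. A bisulfite assay reads unmethylated cytosine as thymine, so the level is the percentage of reads that kept the cytosine. Hippocampus is a mixture of neurons and glia, and a level between 0 and 100% in total DNA can come from a mixture of cells, of alleles or of both.

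The name gene body could be checked only in part, since the files give the start and the strand of each transcript but neither its end nor its exons. Among RRBS positions inside H3K4me1 peaks, the share that the site table lists was 22.4% at 1 to 10 kb downstream of the nearest listed start site. It was 17.0% at 10 to 20 kb, 14.2% at 20 to 50 kb and 11.2% at 50 to 100 kb downstream. Upstream, 23.0% of the positions were listed from 1 to 10 kb, and 3.85% farther away, up to 100 kb. The table thus has a fixed limit upstream, at 10 kb, and thins out gradually downstream. The start site in this check was not always the nearest of those listed with the site, which places the deep gene-body sites. At 10 to 20, 20 to 50 and 50 to 100 kb it placed 16898, 21994 and 12180 listed sites. The deep gene-body sites there number 15962, 23136 and 15882. Over 10 kb upstream fell 11907 listed sites, so a start site not listed with a site can lie nearer. Whether a site is exonic, intronic or past the end of its gene is not given, nor whether positions on a scaffold count from 0 or 1. Of the members, 51291 were listed with 1 gene and 3689 with more than 1, and for 53671 every listed distance was in the range.

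Deep in the gene body CG sites were on average partly methylated, and DNA bound to H3K4me1 was read as less methylated than total DNA. The mean level of the 54980 sites was 51.5% (scaffold SE 0.313) in ChIP-bisulfite and 63.1% (scaffold SE 0.250) in RRBS. The difference at the same sites, ChIP-bisulfite minus RRBS, was -11.6 percentage points (scaffold SE 0.233). The median site stood at 54% in ChIP-bisulfite and at 71% in RRBS. ChIP-bisulfite read lower than RRBS at 46.1% of the sites, higher at 33.2% and the same at 20.8%, so that the median difference was 0. All of these sites lie in H3K4me1 peaks. The mark and the protocol differ together between the assays, and their parts in the difference cannot be told apart.

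Each RRBS level rests on at least 10 reads, with a median of 17 (quartiles 12 and 26), and the median width of its 95% Wilson interval was 28.4 points. ChIP-bisulfite reads per site were not used here. Over the H3K4me1 peaks of the authors' table of averages, the ChIP-bisulfite reads per C position had a minimum of 10 and a median of 16.0. Such intervals cover counting error only, since reads copied in PCR are not independent molecules.

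Within the range the levels were lowest nearest to the start site. At 10 to 20 kb ChIP-bisulfite averaged 50.3% (scaffold SE 0.490) and RRBS 61.3% (0.439) over 15962 sites. At 20 to 50 kb they averaged 52.1% (0.448) and 63.6% (0.340) over 23136 sites. At 50 to 100 kb they averaged 51.8% (0.509) and 64.0% (0.384) over 15882 sites. The gap, ChIP-bisulfite minus RRBS, was -11.04, -11.5 and -12.2 points in these classes, with scaffold SEs of 0.336, 0.326 and 0.430. In 11 finer bins the ChIP-bisulfite level ran from 48.6% in the bin nearest to the start site to 54.2% at 80 to 90 kb. The RRBS level ran from 58.99% to 66.3% in the same bins, and the gap stayed between -13.1 and -10.4 points. No break in level lay at the limits of the range. The 7382 sites just short of it, at 7.5 to 10 kb, stood at 48.6% in ChIP-bisulfite and 58.5% in RRBS, and the 1911 sites just past it, at 100 to 110 kb, at 53.3% and 65.4%.

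**Figure D1:**
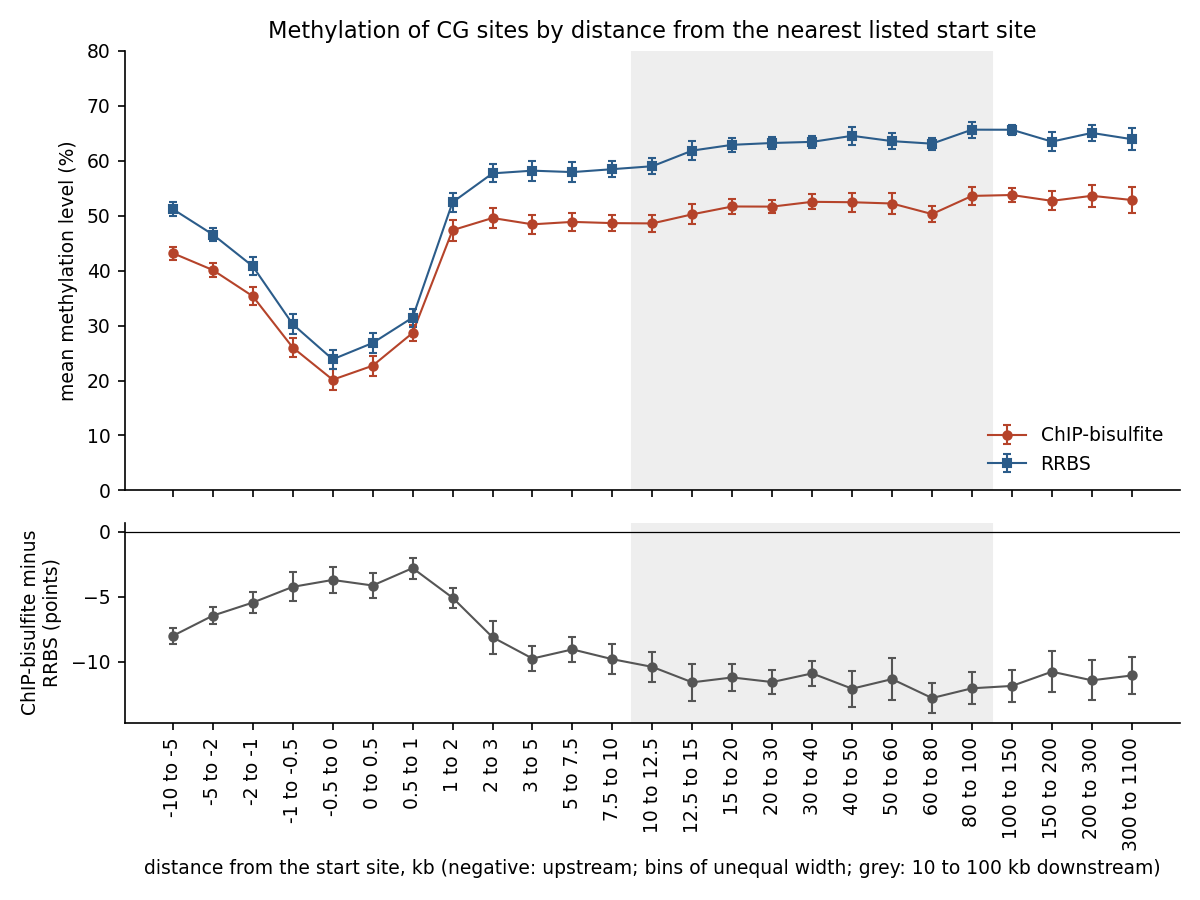
Mean methylation level (upper panel, percent) and ChIP-bisulfite minus RRBS (lower panel, percentage points) in bins of distance from the nearest listed start site, with bars of 95% intervals over scaffolds. In the grey range from 10 to 100 kb downstream both assays are far above the dip at start sites, with RRBS at 58.99% in the first bin and above 60% in the others.

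The sites deep in the gene body were more methylated than those nearer to start sites and slightly less than those farther away. ChIP-bisulfite stood at 51.5% there, against 48.5% at 1 to 10 kb downstream (34781 sites), a difference of 2.98 points (95% interval 1.92 to 4.04). RRBS stood at 63.1% against 56.9%, a difference of 6.12 points (5.12 to 7.11). Against the sites beyond 100 kb, at 53.3% in ChIP-bisulfite and 64.7% in RRBS, the members were lower, with differences of -1.83 points (-2.87 to -0.79) and -1.66 points (-2.51 to -0.80). The gap was wider by -3.13 points than at 1 to 10 kb (95% interval -3.81 to -2.45) and by -7.86 points than within 1000 bases of a start site (-8.60 to -7.12). Beyond 100 kb (19596 sites) the gap was -11.4 points, and the difference of -0.17 points from the deep gene body had an interval that spans 0 (-0.90 to 0.56). These contrasts in the gap changed at equal RRBS level. With the other classes weighted to the members' RRBS levels in bins of 10 points, the difference from 1 to 10 kb was -1.28 points (-1.97 to -0.58). From sites within 1000 bases of a start site it was 1.31 points (0.27 to 2.36), so that the gap was then wider near start sites. From sites beyond 100 kb it was -0.85 points, with an interval that no longer spans 0 (-1.57 to -0.14). Weighted alike, the ChIP-bisulfite level itself differed from 1 to 10 kb by -1.18 points (-2.13 to -0.22). From within 1000 bases of a start site it differed by 1.51 points (-0.95 to 3.97), and from beyond 100 kb by -0.91 points (-1.97 to 0.16), with intervals that span 0. With equal density of CG positions measured by RRBS, the gap differed by -3.09 points from 1 to 10 kb. From within 1000 bases of a start site it then differed by -7.59 points. Sites deep in the gene body also lay in H3K4me1 peaks poorer in CG. The median over sites was 26.8 CG positions per 1000 bases of peak, against 34.5 at 1 to 10 kb and 54.2 within 1000 bases of a start site.

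Read site by site, ChIP-bisulfite had fewer values in the middle of the scale. At most 20% was read at 40.6% of the members in ChIP-bisulfite and at 16.1% in RRBS. At least 80% was read at 43.5% in ChIP-bisulfite and at 42.0% in RRBS, which leaves 15.9% and 42.0% in between. ChIP-bisulfite was exactly 0 or 100 at 65.2% of the members, and RRBS at 31.3%. Of the 23085 sites intermediate in RRBS, 46.7% were low in ChIP-bisulfite, 33.9% were high and 19.4% were intermediate. Of the 23070 sites high in RRBS, 66.0% were also high in ChIP-bisulfite and 20.2% were low. Where RRBS was low (8825 sites), ChIP-bisulfite was low too in 77.8% and high in 10.2%. Depth moved the RRBS shares. RRBS was at exactly 0 or 100 in 44.4% of the 13841 members with 10 to 12 RRBS reads and in 17.6% of the 14509 members with at least 26. In the same sites ChIP-bisulfite was at 0 or 100 in 65.1% and 64.5%, and the part of its own depth per site was not tested.

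**Figure D2:**
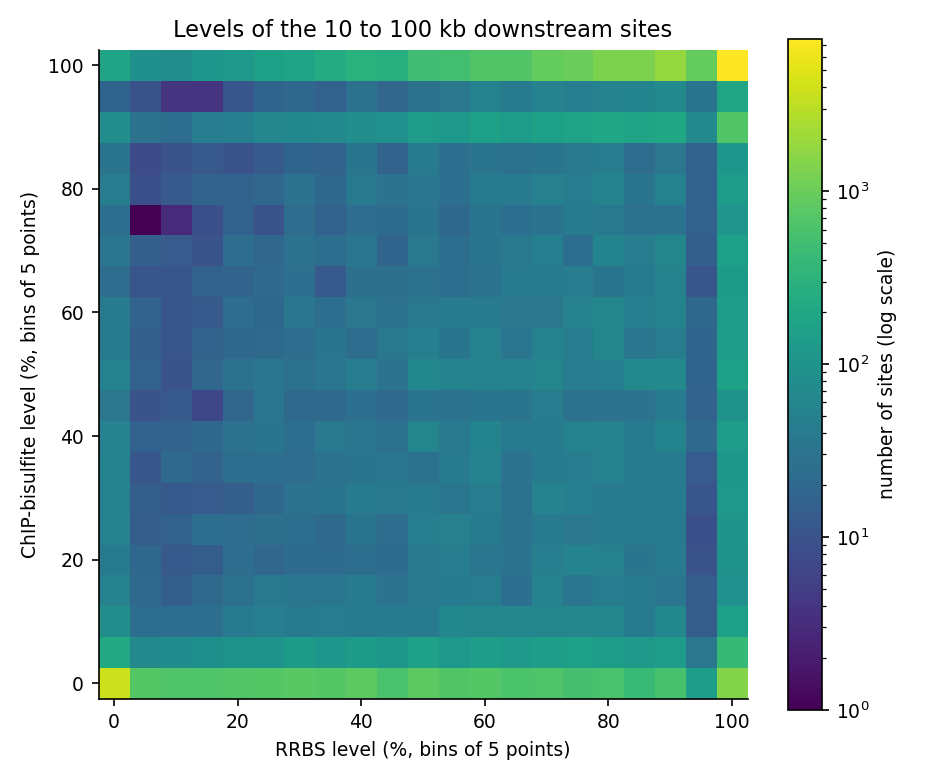
Number of the 54980 sites (colour, log scale) in bins of 5 points of RRBS level (x axis, percent) and ChIP-bisulfite level (y axis, percent). The fullest cells are the corners where both assays read high (15222 sites at 80% or more in both) or low (6869 sites at 20% or less in both), and rows at 0 and 100% in ChIP-bisulfite run across all RRBS levels.

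The gap changed sign along the RRBS scale. Part of this is built in, since the RRBS level enters both the bin and the gap. Near 0% in RRBS the gap can hardly be negative, and at 100% it cannot be positive. ChIP-bisulfite read 11.9 points more than RRBS (scaffold SE 0.483) at the 6209 sites with 0 to 9% in RRBS. It read 2.54 points more at 20 to 29% and 2.82 points less at 30 to 39%, a gap of -2.82. From there it widened steadily to -22.6 points (scaffold SE 0.339) at the 17346 sites with 90 to 100%. Sites at 1 to 10 kb gave 8.53 points at the low end and -22.0 points at the high end. Sites beyond 100 kb gave 15.5 and -22.3 points, and sites within 1000 bases of a start site 3.53 and -22.2 points. The slope was steeper at low RRBS depth. Members with 10 to 12 RRBS reads gave 16.3 points at 0 to 9% and -26.8 points at 90 to 100%, and members with at least 26 reads gave 5.60 and -16.7 points.

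Sites low in both assays and sites high in both differed in their surroundings. The 6869 members low in both lay in peaks with a median of 34.0 CG positions per 1000 bases (quartiles 21.9 and 52.5), against 24.6 (16.7 and 36.4) for the 15222 members high in both. Within Pol II PS5 peaks lay 2.66% of the low sites and 0.611% of the high sites, and within 1000 bases of such a peak 11.9% and 5.39%. Within 200 bases of the edge of their H3K4me1 peak lay 4.64% of the low sites and 17.2% of the high sites. The 4657 sites low in ChIP-bisulfite and high in RRBS resembled the high sites in Pol II PS5 overlap, with 0.601%, and lay between the others in CG density, with a median of 26.8. Distance from the start site hardly separated the states, with medians of 29078 bases for the sites low in both and 32615 bases for those high in both.

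Position inside the H3K4me1 peak separated the levels more than distance from the gene's start did. Edges, lengths and CG density were taken from the peaks of the authors' table of averages, 20233 with a member, which have a median length of 3254 bases and reach 18098 bases. Outside them lay 1 member. Elsewhere peaks are those of the authors' H3K4me1 peak list, whose limits differ: they have a median of 4187 bases, and 971 of them, with 11621 members, are longer than the longest of these 20233. Members within 200 bases of the nearer peak edge stood at 67.0% in ChIP-bisulfite (6125 sites) and 74.9% in RRBS. At 400 to 700 bases from the edge they stood at 48.9% and 62.0%, and at 700 to 1000 bases they reached the lowest values, 45.3% and 58.6% (9151 sites). Farther inside the levels were higher again, with 53.5% and 64.1% at 2000 to 3000 bases. The difference between 700 to 1000 bases and the outer 200 bases was -21.7 points in ChIP-bisulfite (95% interval -23.6 to -19.8) and -16.3 points in RRBS (-17.7 to -14.9). The gap between the assays was -13.4 points at 700 to 1000 bases and -7.93 points at the edge.

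Levels 700 to 1000 bases inside were below those at the edge in each distance class within the range. At 10 to 20, 20 to 50 and 50 to 100 kb from the start site, ChIP-bisulfite stood at 45.5%, 44.0% and 46.7% at 700 to 1000 bases from the edge, and at 65.9%, 67.0% and 68.0% within 200 bases of it. At 10 to 20 kb the lowest level lay farther inside, with 44.2% at 1000 to 1500 bases. Members with no Pol II PS5 peak within 5000 bases gave 45.1% and 67.8%. They are 7348 of the 9151 inner sites and 4964 of the 6125 edge sites, so their values could differ little from those of all members. The contrast at members nearer to Pol II PS5 was not computed. In 715 peaks with members at both positions, the inner sites averaged 46.0% in ChIP-bisulfite and the edge sites 64.2%, and the inner mean was lower in 402 peaks and higher in 214. In RRBS the inner mean was lower in 467 of these peaks and higher in 224. In the other distance classes the same contrast was -15.1 points in ChIP-bisulfite at 1 to 10 kb (95% interval -17.3 to -12.8), -19.3 points beyond 100 kb (-22.2 to -16.5) and -6.34 points within 1000 bases of a start site (-9.54 to -3.13).

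**Figure D3:**
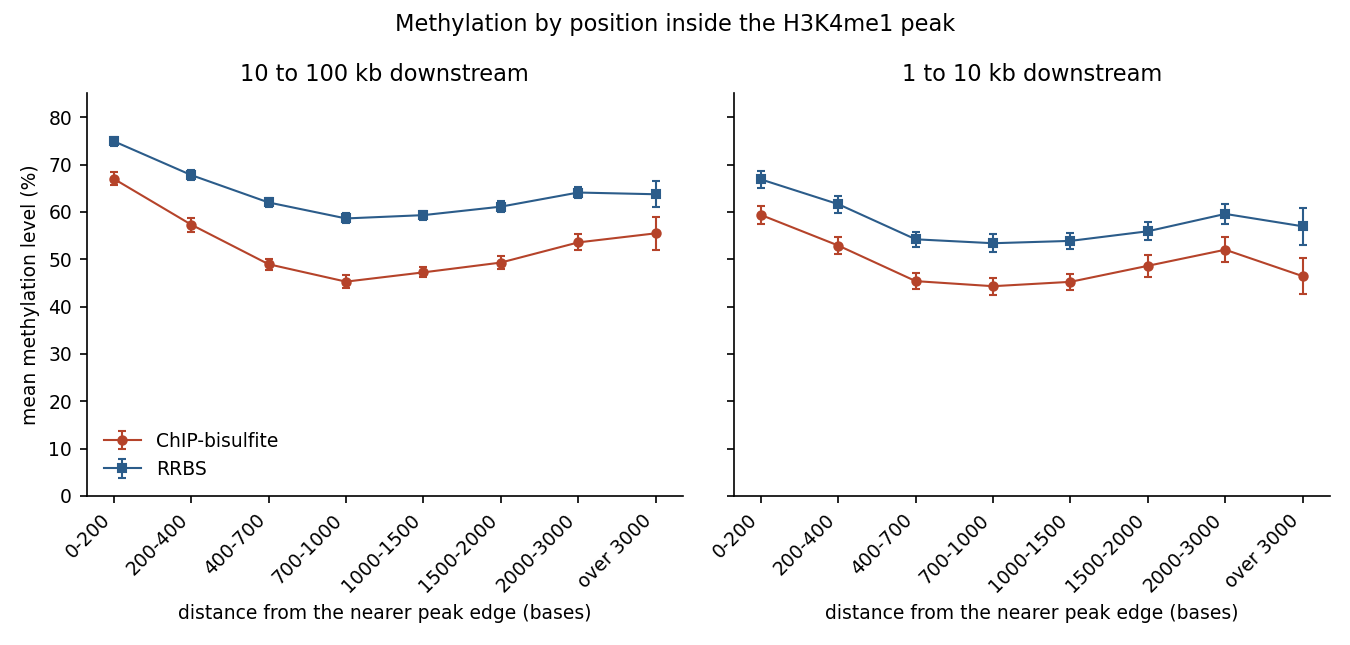
Mean methylation level (percent, bars 95% intervals over scaffolds) by distance in bases from the nearer edge of the H3K4me1 peak, for sites 10 to 100 kb downstream (left) and 1 to 10 kb downstream (right). Both assays are highest within 200 bases of the edge and lowest at 700 to 1000 bases, where the left panel reads 45.3% in ChIP-bisulfite and 58.6% in RRBS.

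The level also went with the authors' score of the peak and with CG density. The deposited H3K4me1 scores mix 2 ranges, one from 42 upwards and one up to 14.8, called the high and the low scale here. The 3375 members in peaks on the low scale stood at 68.4% (scaffold SE 0.893) in ChIP-bisulfite and 78.3% (0.492) in RRBS, against 50.4% (0.311) and 62.1% (0.251) for the 51605 members in peaks on the high scale. Low-scale peaks of the list were shorter, with a median of 1668 bases against 4589. In the 10996 members of the sparsest peaks, with up to 16.7 CG positions per 1000 bases, ChIP-bisulfite stood at 59.2% and RRBS at 69.1%. In the 10994 members of the densest, over 43.7 per 1000 bases, they stood at 43.6% and 54.8%. The gap lay between -13.5 and -9.84 points in all 5 density classes of equal size.

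Neighbouring members were alike over short distances only. For consecutive members of 1 gene 2 to 10 bases apart, Pearson's r of the levels was 0.67 in ChIP-bisulfite and 0.78 in RRBS (5312 pairs). At 31 to 100 bases apart r was 0.39 and 0.53 (4941 pairs), and at 300 to 1000 bases it was 0.052 and 0.13 (6665 pairs). Positions 1 base apart, the 2 strands of 1 CG, gave only 0.48 in ChIP-bisulfite and 0.67 in RRBS (3005 pairs). The gap between the assays had r = 0.50 at 2 to 10 bases and 0.11 at 1 base. Sites a few bases apart on 1 strand can share reads, and both members of a pair share libraries and peak, so these values describe the data and carry no test.

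Averaged by gene, the sites gave intermediate levels in most genes. Of the 7420 genes, 3314 had at least 5 member sites, with 46451 sites or 84.5% of the members, and a median of 10 sites in 3 H3K4me1 peaks. Over these genes ChIP-bisulfite averaged 51.4% (SD 20.02 between genes) and RRBS 62.7% (SD 17.5), and the gap averaged -11.4 points (SD 15.7). The middle 90% of the genes spanned 16.1 to 83.2% in ChIP-bisulfite and 29.1 to 87.2% in RRBS. The gap was negative in 2606 genes (78.6%), positive in 692 and 0 in 16. Between 20 and 80% lay 84.5% of the genes in ChIP-bisulfite and 83.2% in RRBS. At least 80% was found in 254 genes in ChIP-bisulfite and 457 in RRBS (140 in both). At most 20% was found in 261 genes in ChIP-bisulfite, and 83 of these were at most 20% in RRBS too.

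**Figure D4:**
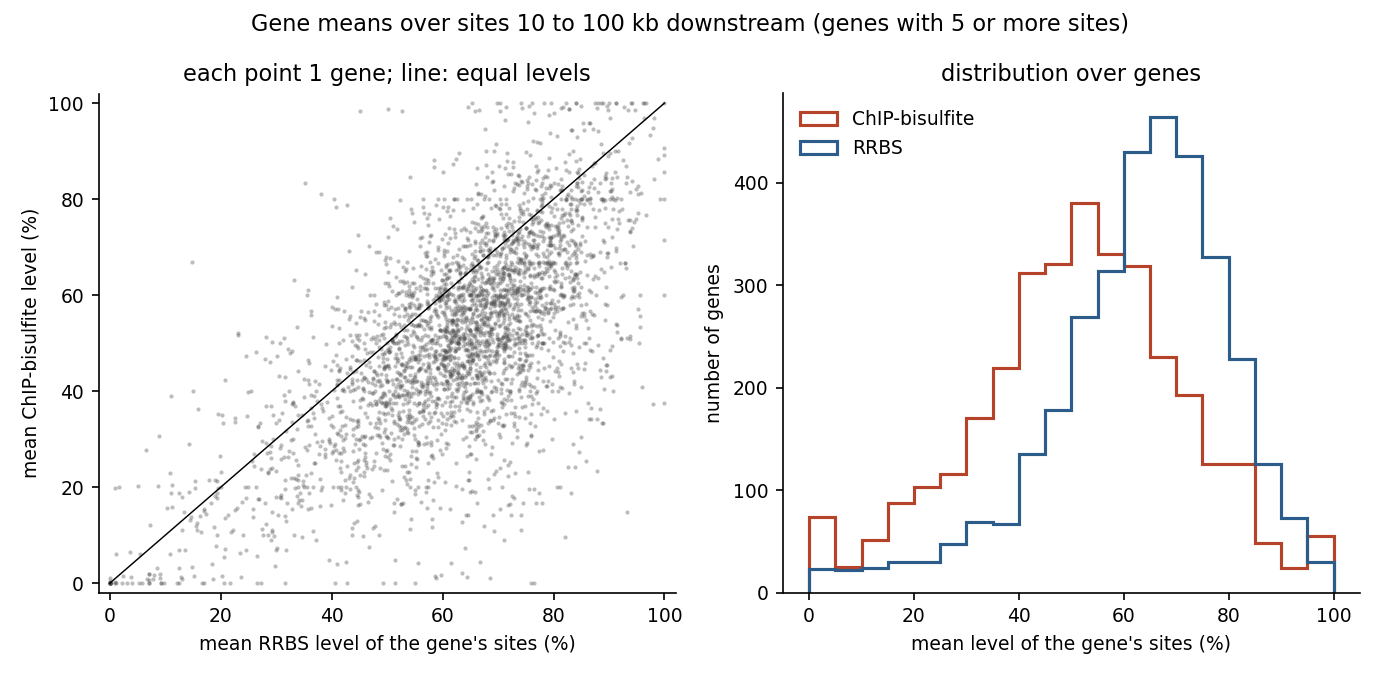
Left, mean ChIP-bisulfite level against mean RRBS level (percent) for each of the 3314 genes with at least 5 sites 10 to 100 kb downstream, with the line of equal levels. Right, the number of genes per 5-point bin in each assay; 2606 genes lie under the line, and the RRBS distribution has its median at 65.2% against 51.7% for ChIP-bisulfite.

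A gene's mean hid most of the variation. Within a gene the single sites had an SD of 42.5 points in ChIP-bisulfite and 31.4 points in RRBS. The means of the genes, each over 5 or more sites, had an SD of 20.02 and 17.5 points. A site at or under 20% and a site at or over 80% stood in the same gene in 90.9% of the genes in ChIP-bisulfite and in 64.8% in RRBS. These shares rise with the number of sites per gene, and what site number alone would give was not computed. In 1386 genes with at least 2 H3K4me1 peaks of 3 or more members, the mean of the peak nearest to the start site and that of the farthest had a Pearson's r of 0.0038 in ChIP-bisulfite and 0.037 in RRBS. These peaks differed by a mean of 30.9 points in ChIP-bisulfite and 23.8 points in RRBS, with no regard to sign. Across the 3314 genes, ChIP-bisulfite and RRBS means of the same sites had a rank correlation (Spearman's rho) of 0.61.

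The files do not pair their gene IDs with names, so genes are described by position. Among 1560 genes with at least 10 member sites in at least 2 H3K4me1 peaks, the 6 with the most negative gap had means from -64.5 to -49.8 points. In ENSCPOG00000015086, on scaffold_29, 13 sites in 5 H3K4me1 peaks averaged 18.7% (SD 31.01) in ChIP-bisulfite and 83.2% (SD 18.6) in RRBS, and 12 of the 13 were lower in ChIP-bisulfite. Its 6 sites in the peak from 17616206 to 17625170 averaged 21.8% against 89.8%, its 4 sites in the peak from 17643535 to 17647441 were all at 0% against a mean of 66.8%, and 1 site 54423 bases from the start was at 100% in both. In ENSCPOG00000010315, on scaffold_27, 12 sites in 3 peaks averaged 19.6% (SD 35.7) and 76.4% (SD 21.5). Its 5 sites 21229 to 24833 bases from the start averaged 3.8% against 71.2%, while its 3 sites at 35304 to 35375 bases averaged 62% against 93.7%.

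The 6 genes with the most positive gap had means from 21.9 to 30.5 points. In ENSCPOG00000003664, on scaffold_5, 10 sites in 4 peaks averaged 84.7% (SD 25.4) in ChIP-bisulfite and 54.2% (SD 34.5) in RRBS, with 7 sites higher in ChIP-bisulfite and none lower. In ENSCPOG00000012245, on scaffold_45, all 10 sites in 3 peaks were at 100% in ChIP-bisulfite, against 69.9% in RRBS (SD 32.3). Each of these genes was picked from 1560 for its value, and the values of their peaks are given as a description.

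The gene lowest in RRBS, on scaffold_5 with 21 sites between 43251777 and 43264189, averaged 0.952% (SD 2.42) in ChIP-bisulfite and 7.76% (SD 15.6) in RRBS. It had no Pol II score and none of its sites lay in a Pol II PS5 peak. Its 13 sites in the first peak, 47109 to 47944 bases from the start, averaged 1.54% and 11.8%, and its 7 sites 58657 to 59521 bases away averaged 0% and 1.43%. The 6 genes lowest in RRBS ranged from 7.76 to 12.1%, with ChIP-bisulfite from 0 to 30.6%. The 6 highest ranged from 91.4 to 93.8%, with ChIP-bisulfite from 50.8 to 80.2%. The gene with the most members, on scaffold_19, had 119 sites in 1 peak of the H3K4me1 peak list, one of the long peaks described above, from 33664716 to 33777547, which averaged 50.1% in ChIP-bisulfite and 58.9% in RRBS over 3026 RRBS reads. The 6 genes with the most members, 95 to 119 each, stayed between 39.5 and 51.2% in ChIP-bisulfite and between 52.6 and 61.6% in RRBS.

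Single H3K4me1 peaks showed the assays apart over stretches of adjacent sites. Of 3021 peaks with at least 5 members, 2287 had a negative mean gap and 715 a positive one, and the gap was -40 points or lower in 186 and 40 points or higher in 7. The most negative was the peak on scaffold_32 from 17384128 to 17388486, 54863 to 54903 bases from the start of its gene. Its 7 sites within 40 bases read 0, 0, 18, 0, 0, 0 and 0% in ChIP-bisulfite, whereas RRBS read 100, 92, 90, 96, 100, 92 and 76% on 10 to 25 reads each. In the peak on scaffold_24 from 7909267 to 7912204, 5 sites over 150 bases were all at 0% in ChIP-bisulfite and at 82 to 91% in RRBS on 11 to 30 reads. In the peak on scaffold_104 from 1975006 to 1977270, which is on the low score scale, 6 sites were all at 0% in ChIP-bisulfite and at 64 to 100% in RRBS, with 119 of 146 RRBS reads methylated (81.5%, Wilson interval 74.4 to 87.0). These 3 peaks were picked from 3021 for their gap, and their values are a description.

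In the other direction, the peak on scaffold_39 from 2744225 to 2747903 read 47, 7, 93, 94 and 94% in ChIP-bisulfite, whereas RRBS read 27, 47, 0, 0 and 0%. Its sites split, with the last 3 unmethylated in RRBS on 14 reads each and nearly fully methylated in ChIP-bisulfite. The peak on scaffold_4 from 55670415 to 55677824 read 92, 92, 92, 6 and 0% in ChIP-bisulfite, whereas RRBS read 0, 0, 32, 0 and 0% on 19 to 28 reads. The peak on scaffold_42 from 342061 to 349607 read 90 to 100% at all 6 sites in ChIP-bisulfite and 5 to 77% in RRBS. Equal read numbers at neighbouring sites mean that some of them lie on the same reads, and the 5 to 7 sites of a peak are not independent.

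Pol II PS5 was rare so far inside genes, and where it was found methylation was lower in both assays. Inside Pol II PS5 peaks lay 565 members (1.03%, exact 95% interval 0.945 to 1.12), in 306 H3K4me1 peaks and 299 genes. The share was 2.22% over all sites and 0.888% beyond 100 kb. It was 1.46% at 1 to 10 kb and 6.55% within 1000 bases of a start site. The members inside stood at 35.02% in ChIP-bisulfite (scaffold SE 2.38) and those outside at 51.7% (scaffold SE 0.318), a difference of -16.6 points (95% interval -21.4 to -11.9). In RRBS the members inside stood at 44.6% (scaffold SE 2.48) and those outside at 63.2% (0.253), a difference of -18.7 points (-23.6 to -13.8). At 1 to 10 kb downstream the same difference was -14.7 points in ChIP-bisulfite (-23.2 to -6.23) and -20.7 points in RRBS (-27.9 to -13.4). Within 1000 bases of a start site it was -18.4 and -19.1 points, and over all sites other than members -26.0 and -30.3 points. At most 20% in RRBS was read at 36.1% of the members inside and at 15.8% of those outside. The gap between the assays was -9.55 points inside and -11.6 points outside, and their difference of 2.03 points had an interval that spans 0 (-0.79 to 4.85).

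The contrast was smaller within the same peaks of the H3K4me1 peak list. With outside sites taken only from the H3K4me1 peaks that also held an inside member, the difference was -12.5 points in ChIP-bisulfite (95% interval -17.6 to -7.43) and -14.5 points in RRBS (-19.2 to -9.88). In the 223 H3K4me1 peaks with members both inside and outside, the inside mean of ChIP-bisulfite was lower in 126, higher in 72 and equal in 25, with a mean difference of -10.2 points and an SD of 48.3. In RRBS it was lower in 135, higher in 81 and equal in 7, with a mean difference of -12.6 points and an SD of 37.4. CG density moved with Pol II PS5, with a median of 34.8 CG positions per 1000 bases for members inside and 26.8 outside, and its part in the difference was not tested.

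The level was also lower just outside the Pol II PS5 peak, though not in a steady order. Members up to 200 bases from the nearest Pol II PS5 peak stood at 44.6% in ChIP-bisulfite and 54.3% in RRBS (731 sites), those 200 to 500 bases away at 41.8% and 51.9% (924 sites), and those 500 to 1000 bases away at 47.0% and 56.8% (1412 sites). From 1000 to 2000 bases they stood at 51.3% and 61.8%, and between 10000 and 50000 bases at 52.3% and 64.0% (29852 sites).

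**Figure D5:**
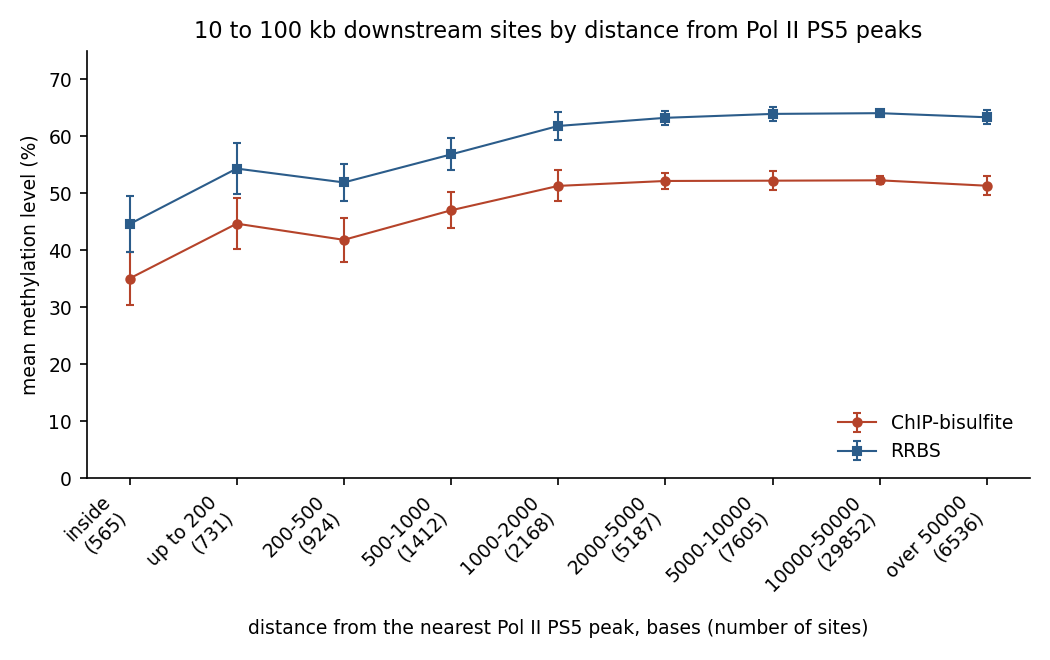
Mean methylation level (percent, bars 95% intervals over scaffolds) of the sites 10 to 100 kb downstream by distance from the nearest Pol II PS5 peak, with the number of sites in brackets. Levels are lowest inside the peaks, at 35.02% in ChIP-bisulfite and 44.6% in RRBS, and from 1000 bases outward they lie between 51.3 and 52.3% in ChIP-bisulfite and between 61.8 and 64.0% in RRBS.

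Among single peaks, the one with the most members under Pol II PS5 lies on scaffold_927 from 10897 to 27858. It had 26 of its 38 members inside and averaged 44.6% (SD 35.9) in ChIP-bisulfite and 43.3% (SD 32.5) in RRBS. Its RRBS depth reached 860 reads at a site, against a median of 17 over all members. Without it the difference between members inside and outside was -17.0 points in ChIP-bisulfite and -18.5 points in RRBS. In the peak on scaffold_70 from 8506681 to 8509774, 7 of the 9 sites inside were at 0% in ChIP-bisulfite and at 0 to 12% in RRBS, and the other 2 were at 100% against 74 and 78%. In the peak on scaffold_25 from 24403364 to 24408389 all 8 members lay inside. Their mean was 77.5% (SD 41.7) in ChIP-bisulfite and 91.8% (SD 15.4) in RRBS. In ChIP-bisulfite they split, with 6 sites at 100% and 2 at 10%.

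The authors' Pol II PS5 score, 1 value per transcript, was above 0 for 73.0% of the members. Members of genes with a score stood at 52.3% in ChIP-bisulfite (scaffold SE 0.338, 40116 sites) and those without at 49.4% (0.533, 14864 sites), so that scored sites were higher by 2.93 points (95% interval 1.81 to 4.06). In RRBS they stood at 63.7% and 61.3%, a difference of 2.35 points (1.32 to 3.39). At 1 to 10 kb downstream the difference had the same sign. It was 4.53 points in ChIP-bisulfite (2.76 to 6.31) and 3.40 points in RRBS (1.57 to 5.23). Within 1000 bases of a start site the difference had the other sign, with -4.99 points in ChIP-bisulfite (-6.98 to -2.99) and -5.84 points in RRBS (-7.61 to -4.06). Unscored members were also weighted to the scored ones' distance and density of CG positions measured by RRBS in the peak. The difference was then 1.66 points in ChIP-bisulfite (0.41 to 2.91) and 1.18 points in RRBS (0.082 to 2.29). Among scored members the level showed no steady order with the score. In 4 equal classes of the score, low to high, ChIP-bisulfite stood at 51.5, 52.8, 52.2 and 52.5% (scaffold SE up to 0.710). RRBS stood at 63.4, 64.2, 63.5 and 63.6% in them (scaffold SE up to 0.620). By gene, the 2351 scored genes with at least 5 members averaged 52.5% in ChIP-bisulfite (SD 18.9) and the 963 unscored genes 48.7% (SD 22.2).

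The authors list sites as differentially methylated where one assay reads at most 30% and the other at least 70%. Every listed site met this rule and no unlisted site did. Of the members, 6996 (12.7%) were listed lower in ChIP-bisulfite, against 10.2% of all 167387 sites, and 1591 (2.89%) were listed higher, against 2.93% of all. With at least 20 RRBS reads 1.89% of the members were listed higher, against 2.07% of all such sites. The share listed lower was 12.4% at 10 to 20 kb, 12.7% at 20 to 50 kb and 13.0% at 50 to 100 kb. A site can be listed lower only if RRBS reads at least 70%, and more members do. Among the 28308 members that do, 24.7% were listed lower (exact 95% interval 24.2 to 25.2). Among all sites that do, the share was 23.8% (23.5 to 24.1). At 1 to 10 kb it was 22.5% (21.9 to 23.2), and beyond 100 kb 24.6% (23.8 to 25.5). Within 1000 bases of a start site it was 22.9% (21.7 to 24.2). Among the 11652 members with at most 30% in RRBS, 13.7% were listed higher (13.0 to 14.3), against 9.02% of all such sites (8.78 to 9.27). The share was 10.4% at 1 to 10 kb (9.81 to 11.01) and 4.18% within 1000 bases of a start site (3.86 to 4.52). Beyond 100 kb it was 16.2% (15.0 to 17.4). With at least 20 RRBS reads these shares were 10.1% for the members (9.23 to 11.1), 8.67% at 1 to 10 kb (7.77 to 9.64), 3.74% within 1000 bases of a start site and 11.3% beyond 100 kb, so that the intervals of the members and of 1 to 10 kb then overlapped. By a cut at 40 points between the assays, 24.7% of the members were lower, against 20.4% of all sites, and 8.77% were higher, against 8.53%. These intervals take sites as independent, although neighbours are alike. Of the 3314 genes with at least 5 members, 2295 held a site listed lower, 945 a site listed higher and 722 both, while 796 held none. A gene with more sites is more likely to hold a listed one, and the same counts over all sites were not made.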

How the data were processed

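The deposited files hold 1 value per site and assay for the 3 animals together. Per the submitters' processing notes, Bismark 0.12.5, methylKit and SAMtools 1.1 were used for ChIP-bisulfite, BSMAP 2.74, methylKit and SAMtools 1.1 for RRBS, and Bowtie2 2.2.3, MACS2 and HOMER 4.6 for ChIP-seq. The genome build and the role of each tool are not given in the sources used here. Levels were deposited by the authors as whole percent per CG site, RRBS reads per C position as counts, and peaks and transcripts with the authors' score. Distances are those of the site table, and strand times position minus start site equalled them in every line.

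The 241970 lines were reduced to 167387 sites, each with its nearest listed start site and the highest Pol II PS5 score of its transcripts. Sites were placed in H3K4me1 and Pol II PS5 peaks by position. Means weight each site the same; scaffold SEs are linearised ratio estimates over scaffolds, and 95% intervals are 1.96 SE, or exact binomial for shares. Sites on a scaffold, and both sides of a difference, share libraries. Differences between classes were also computed with weights for RRBS level or for the density of CG positions measured by RRBS in the peak. The deposited table of averages gave only peak limits, CG positions and reads; its ChIP-bisulfite levels were not used here. The computation was tested on simulated data. Python 3.11.15, numpy 2.4.6, pandas 2.3.3, scipy 1.17.1 and matplotlib 3.10.9 were used.

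Members, gene lists and peaks were chosen with earlier results of these data known. Genes were named among those with at least 10 members in at least 2 H3K4me1 peaks by lowest and highest RRBS mean, gap and Pol II PS5 score, and peaks with at least 5 members by gap, or by members under Pol II PS5. Lists of pathway genes were not used: the reference table pairs 0 of 19244 gene IDs with a symbol, and no genome sequence was used. The 3 digestion control libraries were not analysed here. Alternatives were other limits, weights, depths and peak sets, and those on the position in the peak, on weighted unscored sites, on depth and on 1 left-out peak under Pol II PS5 were chosen after seeing the data.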

Additional observations from a re-analysis of the deposited data

How the results depend on the processing

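No paired analysis was possible because the deposited values pool the 3 animals in 1 value per site, and for the same reason no animal could be left out. Of 134 values under other settings, 75 stayed within the 95% interval of the value reported (counts within 1.5 times), and 59 did not. Of those 59, 1 changed its sign. At equal RRBS level the gap of the members minus that within 1000 bases of a start site was 1.31 points, against -7.86 without weights. From the class 1 to 10 kb upstream the difference of gaps became -0.19 points, and from 1 to 10 kb downstream -1.28. Equal density of CG positions measured by RRBS moved none of these differences. With every listed line in range, a site once per gene, ChIP-bisulfite was 48.1%, RRBS 58.3% and the gap -10.2 points, since sites nearer to another start site then enter. With each H3K4me1 peak weighted the same, ChIP-bisulfite was 55.8% and RRBS 67.3%, and the inner minus edge differences were -19.4 and -14.5 points. With each gene weighted the same, ChIP-bisulfite was 54.1%, RRBS 65.1% and the gap -10.96 points.

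With at least 20 RRBS reads, ChIP-bisulfite was 52.4% and RRBS 64.2%. Sites low and high in ChIP-bisulfite were then 39.6% and 44.5%, sites low and between in RRBS 13.1% and 45.3%, and sites listed lower and higher 12.1% and 1.89%. Means over the 1553 genes left were 63.6% in RRBS and -12.2 points for the gap, and the inner minus edge difference in RRBS was -17.9 points. With H3K4me1 peaks of the high score scale only, ChIP-bisulfite was 50.4% and RRBS 62.1%. Sites low, between and high were then 41.4%, 16.5% and 42.1% in ChIP-bisulfite, with RRBS at 16.8%, 42.5% and 40.7%, and gene means 50.1% and 61.6%. Limits of 10 and 90% gave 37.8%, 21.1% and 41.1% in ChIP-bisulfite, with RRBS at 11.8%, 56.6% and 31.5%, and limits of 30 and 70% gave 43.0%, 11.05% and 45.9% and 21.2%, 27.3% and 51.5%. A cut at 40 points, not the authors' list, gave 24.7% lower and 8.77% higher. With at least 3 sites per gene the RRBS gene mean was 63.4%, with at least 10 sites the ChIP-bisulfite gene mean was 50.6% over 1720 genes, and with at least 2 H3K4me1 peaks per gene the means were 53.1% and 64.8%.

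Sites within 200 bases of a Pol II PS5 peak differed from the rest by -11.3 points in ChIP-bisulfite and -13.3 in RRBS. With unscored sites weighted for distance and density of CG positions measured by RRBS, scored minus unscored was 1.66 and 1.18 points. With the limits of the H3K4me1 peak list, the inner minus edge difference in ChIP-bisulfite was -24.1 points. The cause of these changes was not tested, except where the setting itself changes the sites or limits counted.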
